A study of Mus musculus with 10 samples.

Results

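Voltage-gated calcium channels are named after the pore-forming alpha-1 subunit, and the 8 alpha-1 genes expressed in mouse brain (Cacna1a, Cacna1b, Cacna1c, Cacna1d, Cacna1e, Cacna1g, Cacna1h and Cacna1i) were examined in the prefrontal cortex of Arid1b+/- mice (HT) and wild-type mice (WT). They were taken as a gene family, by symbol, with earlier results of these data known, and all 8 were among the 18216 genes in the table and among the 16781 genes tested. The samples were prefrontal cortex from 10 male C57BL/6N mice at postnatal day 10 (P10), 5 Arid1b heterozygotes (HT1 to HT5) and 5 wild types (WT1 to WT5), with a single RNA-Seq library for each mouse. HT mice carried a protein-truncating mutation of Arid1b, made by genome editing in exon 5, on 1 of their 2 copies in every cell, so nothing in this design restricts the mutation to neurons. None of the 8 genes passed the threshold used for a difference between HT and WT, and the levels, the order of the genes and the mice that stood apart are given here. In such bulk samples, fewer cells of a type and less RNA per cell cannot be told apart.

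The alpha-1 subunit contains the voltage sensor and the calcium-selective pore, and its identity sets the current type. High-voltage-activated channels comprise the P/Q-type (Cacna1a) and N-type (Cacna1b) channels, which trigger transmitter release at nerve terminals, the L-type channels (Cacna1c and Cacna1d) of cell bodies and dendrites, which couple activity to gene expression, and the R-type channel (Cacna1e). Low-voltage-activated T-type channels (Cacna1g, Cacna1h and Cacna1i) open near rest and support burst firing. The high-voltage-activated pores associate with beta and alpha2delta subunits, which bring them to the membrane, whereas T-type pores can work alone.

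The alpha-1 genes are paralogs, and a read wholly inside a stretch that is identical in 2 of them cannot be assigned to either by sequence. The longest identical runs are therefore shown first. The paper describes paired-end reads, each longer than the longest of these runs, so a full-length read could not lie wholly inside one. Among the 28 pairs of coding sequences, 6 shared a run of at least 31 bases, the length of the short stretches (words) by which transcripts were compared. The longest run, of 68 bases, was shared by Cacna1g (exon 11 of 38, GRCm38 chr11:94443187-94443254, minus strand) and Cacna1i (exon 12 of 37, chr15:80369688-80369755, plus strand). The sequences are coding sequences of GENCODE M21 transcripts, written 5′ to 3′ on the coding strand, with the identical run in capitals and up to 15 flanking bases in lower case.
Cacna1g: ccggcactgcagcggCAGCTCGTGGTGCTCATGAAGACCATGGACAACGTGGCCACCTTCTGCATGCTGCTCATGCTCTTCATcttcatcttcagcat
Cacna1i: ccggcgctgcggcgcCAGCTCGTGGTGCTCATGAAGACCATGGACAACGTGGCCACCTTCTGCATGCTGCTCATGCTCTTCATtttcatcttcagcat
The next run, of 50 bases, lay in exon 25 of both Cacna1h (chr17:25383183-25383232, minus strand) and Cacna1i (chr15:80378189-80378238, plus strand), so that the 3 T-type genes each shared a run with another T-type gene.
Cacna1h: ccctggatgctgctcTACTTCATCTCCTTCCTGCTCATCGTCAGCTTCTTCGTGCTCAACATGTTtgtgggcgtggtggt
Cacna1i: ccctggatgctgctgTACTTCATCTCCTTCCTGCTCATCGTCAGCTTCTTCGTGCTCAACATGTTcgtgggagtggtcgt
The 2 L-type genes shared 43 bases in exon 28 of Cacna1c (chr6:118654366-118654408, minus strand) and exon 28 of Cacna1d (chr14:30099154-30099196, minus strand).
Cacna1c: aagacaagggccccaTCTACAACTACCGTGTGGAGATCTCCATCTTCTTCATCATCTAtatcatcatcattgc
Cacna1d: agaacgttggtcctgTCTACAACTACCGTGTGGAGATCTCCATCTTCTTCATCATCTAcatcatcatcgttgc
The 2 presynaptic genes shared 35 bases in exon 7 of Cacna1a (chr8:84533418-84533452, plus strand) and exon 7 of Cacna1b (chr2:24721353-24721387, minus strand).
Cacna1a: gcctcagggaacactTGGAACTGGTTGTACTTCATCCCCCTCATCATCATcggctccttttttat
Cacna1b: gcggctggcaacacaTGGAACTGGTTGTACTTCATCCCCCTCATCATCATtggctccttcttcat
Cacna1g and Cacna1h shared 41 bases, and Cacna1b and Cacna1c shared 32 bases. These runs were short beside coding sequences of 6540 to 7146 bases. Over whole transcripts, 0.028% (Cacna1e) to 0.861% (Cacna1g) of the 31-base words of a member also occurred in another of the 8 genes, and 0.052% (Cacna1a) to 0.885% (Cacna1e) occurred in any other gene. Nearly all of each member was thus distinct at this word length. Overlap with genes on the opposite strand was a separate limit. The longest overlap between single exons was 589 bases for Cacna1d and Chdh, 227 bases for Cacna1a and the antisense gene Gm16183, and 158 bases for Cacna1h and Tpsg1. Total overlaps were not computed.

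Values are normalised counts, the estimated reads of a gene divided by a size factor for each mouse, and genotypes were compared on log2(value + 1) with limma, a linear model fitted across all genes, whose p-values were adjusted over all genes tested. Arid1b itself was 66.6% of the WT mean in HT mice, with no overlap between the groups (log2 fold change -0.59, limma adjusted p = 9.96e-05), so the libraries matched their genotypes at the targeted gene. Totals of normalised counts were 31106330 to 32106791, and correlations between samples were 0.982 to 0.989. All 9 marker genes of glutamatergic neurons and all 9 of GABAergic neurons were measured. The thalamic marker Gbx2, the cerebellar markers Gabra6, Pcp2 and Barhl1 and the choroid plexus markers Ttr and Folr1 were not in the table. The other markers of those lists were in it, as were all 9 striatal and all 5 olfactory bulb markers. Striatal sums were 7528 to 22863 in HT and 6526 to 18044 in WT. The missing markers therefore do not show that samples were free of neighbouring tissue. HT2 stood apart with 8.43% mitochondrial transcripts, against 5.15% to 6.76% in the other mice. It also had the lowest sum of glutamatergic markers (56246, against 63380 to 76313 in the other mice). Its sum of astrocyte markers was the highest (202779), followed by HT5 (193441), so results were also computed without HT2 and HT5. That run left out HT mice only, and kept WT4, whose glutamatergic sum (63380) was the next lowest, while that of HT5 was 71211. HT2 and HT5 were also the lowest HT mice for Cacna1b, Cacna1e and Cacna1i, so leaving them out raised the HT means of these genes.

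To compare the 8 genes with one another, normalised counts were divided by the exonic length of each gene in kilobases, which puts them on a scale of normalised counts per kb. Cacna1a had the highest level, with a mean of 929.9 per kb over the 10 mice (range 835.5 to 1033). Cacna1b followed at 763.7 (641.2 to 902), Cacna1g at 635.2 (580.7 to 707.2) and Cacna1i at 547.5 (462.3 to 628.2). Cacna1e had 438.5 (391.4 to 475.1), Cacna1h 290.5 (247.6 to 327.9), Cacna1d 238.8 (218.1 to 257) and Cacna1c 191.5 (169.9 to 201.6). With all exonic bases as the length, the presynaptic pair thus had the highest means of the family at P10 and the L-type pair the lowest. Set among the protein-coding genes tested, Cacna1a was at percentile 90.2 of the level per kb and Cacna1c at percentile 56.4, so all 8 were above the median gene.

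Neighbours in this order often had overlapping ranges. The ranges over the 10 mice were separate only between Cacna1e and Cacna1h and between Cacna1d and Cacna1c, and the other neighbours overlapped between mice. Within each mouse the order by all exonic bases was steadier. Cacna1b exceeded Cacna1g in 9 of 10 mice, the exception being HT2, where the ratio was 0.967. Each of the other neighbouring pairs kept its order in 10 of 10 mice, with mean ratios of 1.17 (Cacna1g over Cacna1i) to 1.53 (Cacna1e over Cacna1h). The order depended on the length used, and Cacna1e, for example, has 25228 exonic bases in all but 14921 in its longest coding transcript. With the longest coding transcript as the length, a choice made after seeing the data, Cacna1e moved to rank 4 above Cacna1i, and Cacna1d moved to rank 6 above Cacna1h. By that length several neighbours were close, and their order changed between mice. Cacna1b (mean 779.8) exceeded Cacna1g (768.1) in 6 of 10 mice and fell below it in HT1, HT2, HT5 and WT1. Cacna1g exceeded Cacna1e (741.4) in 4 of 10 mice, Cacna1d (346.9) exceeded Cacna1h (344.6) in 5 and Cacna1h exceeded Cacna1c (308.4) in 8, while the other neighbouring pairs kept their order in 10 of 10.

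**Figure D1:**
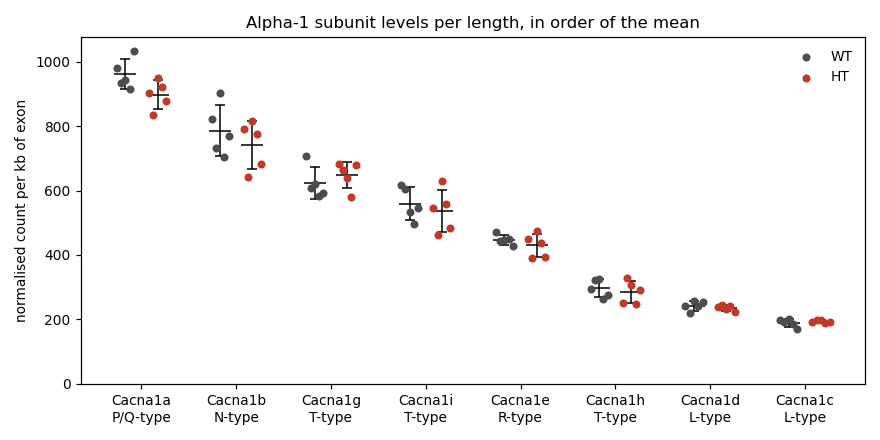
Level of each alpha-1 gene per kb of exon (y axis, normalised count per kb) for the 8 genes in order of their mean (x axis), with 1 point per mouse, WT in grey and HT in red, and bars for the mean ± SD (n = 5 per genotype). Cacna1a is highest at a mean of 929.9 and Cacna1c lowest at 191.5, and HT and WT points overlap for every gene.

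Summed per kb, the family reached 3966 ± 191.3 in HT and 4105 ± 187.6 in WT (SD, 5 mice each), with all mice between 3762 and 4331. The 3 T-type genes made up the largest share of this sum, 37.0% ± 1.37 in HT and 36.0% ± 1.49 in WT (SD, 5 mice each). P/Q-type made up 22.6% ± 0.497 in HT and 23.5% ± 1.22 in WT, and N-type 18.7% ± 1.16 and 19.1% ± 1.3. L-type made up 10.8% ± 0.59 and 10.5% ± 0.446, and R-type 10.8% ± 0.422 and 10.9% ± 0.477. In each class the difference between genotypes was smaller than the larger of its SDs, and the classes were not tested. These shares rest on union exon lengths and describe transcripts, not channel protein or current.

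The comparison of HT with WT asked whether any alpha-1 gene changed with loss of a copy of Arid1b. Of the 8 genes, 0 had a limma adjusted p under 0.05 (0.0179% of all genes tested did) and 0 had an unadjusted p under 0.05 (9.23% of all genes did). The log2 fold change, HT minus WT, was negative for 6 and positive for 2, where 51.2% of all genes had a negative value. The median was -0.06 for the 8 genes and -0.0035 for all genes. For 0 of the 8 genes were the HT and WT values free of overlap (1.62% of all genes were). Over the 8 genes, the 95% intervals of the ratio of HT to WT reached from 0.839 (Cacna1b) to 1.139 (Cacna1g).

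**Figure D2:**
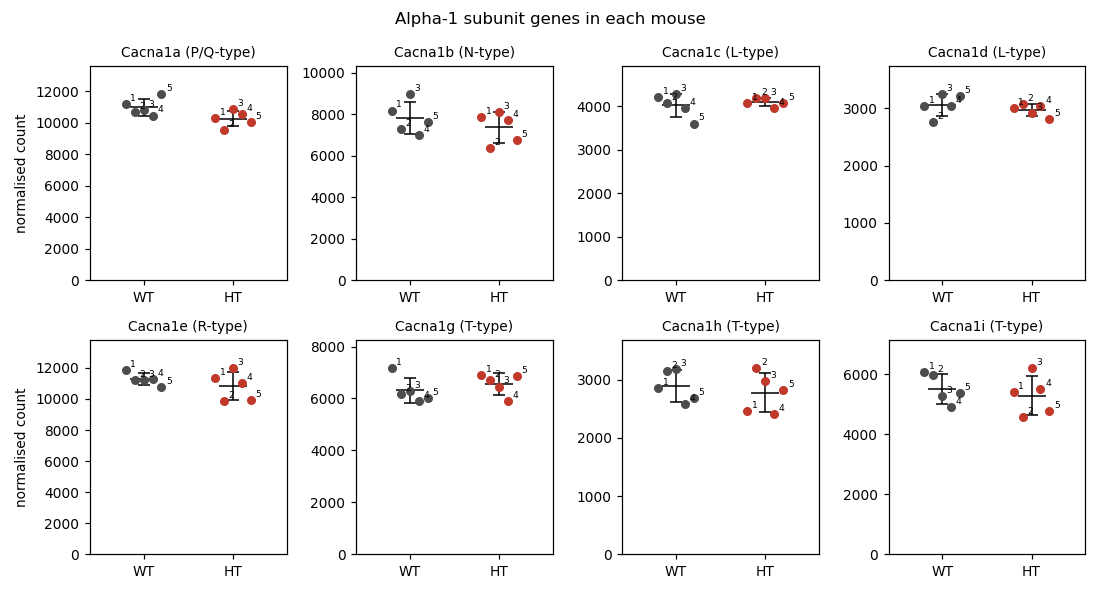
Normalised count (y axis, from 0) of each alpha-1 gene in WT (grey) and HT (red) mice, 1 point per mouse with its replicate number, and bars for the mean ± SD (n = 5 per genotype). HT and WT overlap in all 8 panels, and in Cacna1a, Cacna1b, Cacna1e and Cacna1i the lowest point is HT2.

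Of the presynaptic genes, Cacna1a (ENSMUSG00000034656, GRCm38 chromosome 8, 84388440 to 84640246, plus strand) came closest to the threshold. Its normalised counts were 10314, 9539, 10857, 10528 and 10035 in HT1 to HT5 and 11196, 10675, 10786, 10451 and 11799 in WT1 to WT5. All 5 HT mice were below the WT mean and HT1, HT2 and HT5 were below every WT mouse, but HT3 and HT4 lay inside the WT range. HT mice averaged 10255 ± 500.2 and WT mice 10981 ± 531 (SD, 5 mice each), a log2 fold change of -0.10 (SE 0.05) with an unadjusted p of 0.0592 and a limma adjusted p of 0.55. The interval allowed a ratio of HT to WT of 0.869 to 1.003. The unadjusted limma p was 0.0334 without HT3 and 0.0374 without WT4, with adjusted p of 0.433 and 0.439, and it was 0.26 without HT2 and HT5, where the log2 fold change was -0.05.

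Cacna1b (ENSMUSG00000004113, chromosome 2, 24603887 to 24763152, minus strand), the N-type pore, had 7873, 6375, 8115, 7712 and 6776 in HT1 to HT5 and 8184, 7274, 8968, 6994 and 7651 in WT1 to WT5. HT2 and HT5 were below every WT mouse, WT3 was highest, and the other 3 HT mice lay among the WT values. HT minus WT gave -0.08 on the log2 scale (SE 0.08, limma adjusted p = 0.724), and the interval allowed a ratio of 0.839 to 1.06. Without HT2 and HT5 the sign reversed, to 0.0211. The ratio of Cacna1b to Cacna1a within a mouse, which does not depend on the scaling of that mouse, differed by 0.014 on the log2 scale (exact two-sided permutation p = 0.81).

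Cacna1e (ENSMUSG00000004110, chromosome 1, 154390731 to 154884501, minus strand), the R-type pore, had 11370, 9875, 11987, 11049 and 9962 in HT1 to HT5 and 11879, 11197, 11230, 11307 and 10767 in WT1 to WT5. As for Cacna1b, HT2 and HT5 were below every WT mouse, while HT3 had the highest value of the 10. The spread was wider in HT, with a coefficient of variation of 8.42% against 3.53% in WT. A difference of -0.06 on the log2 scale (SE 0.06, limma adjusted p = 0.732) became 0.0243 without HT2 and HT5. The interval allowed a ratio of 0.882 to 1.045.

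The L-type genes varied less in HT than in WT, with coefficients of variation of 2.26% and 6.58% for Cacna1c and 3.56% and 6.39% for Cacna1d. Cacna1c (ENSMUSG00000051331, chromosome 6, 118587240 to 119196418, minus strand) had 4073, 4185, 4186, 3964 and 4076 in HT1 to HT5 and 4201, 4075, 4273, 3954 and 3601 in WT1 to WT5. Every HT value lay inside the WT range, and WT5 was the lowest mouse. On the log2 scale the difference was 0.03 (SE 0.05, limma adjusted p = 0.858, ratio 0.949 to 1.097), and it was -0.0099 without WT5, so its sign rested on that mouse. Cacna1d (ENSMUSG00000015968, chromosome 14, 30039939 to 30491455, minus strand) had 2998, 3076, 2914, 3043 and 2815 in HT1 to HT5 and 3041, 2753, 3243, 3040 and 3215 in WT1 to WT5. Again the HT values all lay inside the WT range. Its log2 fold change was -0.04 (SE 0.05, limma adjusted p = 0.794, ratio 0.902 to 1.047). The ratio of Cacna1d to Cacna1c differed by -0.07 on the log2 scale (exact two-sided permutation p = 0.389, adjusted over 3 ratios 0.583).

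Among the T-type genes, Cacna1g (ENSMUSG00000020866, chromosome 11, 94408391 to 94474198, minus strand) was the only one with a positive difference. It had 6901, 6720, 6462, 5887 and 6876 in HT1 to HT5 and 7169, 6162, 6276, 5919 and 6015 in WT1 to WT5. WT1 was the highest of the 10 mice and HT4 the lowest, although 4 of 5 HT mice were above the WT mean. The log2 fold change was 0.06 (SE 0.06, limma adjusted p = 0.748, ratio 0.953 to 1.139) and 0.11 without WT1.

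Cacna1h (ENSMUSG00000024112, chromosome 17, 25374285 to 25433783, minus strand), a T-type gene on the chromosome that carries Arid1b, had 2461, 3202, 2981, 2418 and 2832 in HT1 to HT5 and 2862, 3155, 3183, 2577 and 2693 in WT1 to WT5. The HT mice held both extremes, with HT2 above and HT1 and HT4 below every WT mouse. The log2 fold change was -0.06 (SE 0.08, limma adjusted p = 0.819, ratio 0.846 to 1.085), and without HT2 and HT5 it was -0.15 (limma adjusted p = 0.869). The ratio of Cacna1h to Cacna1g differed by -0.12 on the log2 scale, the largest of the 3 ratios, with overlapping groups (exact two-sided permutation p = 0.262, adjusted 0.583).

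Cacna1i (ENSMUSG00000022416, chromosome 15, 80287238 to 80398279, plus strand), the third T-type pore, had 5393, 4559, 6196, 5504 and 4761 in HT1 to HT5 and 6081, 5971, 5258, 4897 and 5377 in WT1 to WT5. HT2 and HT5 were below every WT mouse and HT3 was above every WT mouse. Between genotypes the log2 difference was -0.07 (SE 0.08, limma adjusted p = 0.798, ratio 0.845 to 1.08), and it was 0.0485 without HT2 and HT5. Cacna1i thus had its lowest and highest mice in common with Cacna1e and not with the other T-type genes.

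Across the family, the mice that stood apart differed by gene. HT2 was the lowest of 10 mice for Cacna1a, Cacna1b, Cacna1e and Cacna1i and the highest for Cacna1h. Relative to the mean over 10 mice, HT2 was at -0.15, -0.25, -0.16 and -0.24 on the log2 scale for those 4 genes and at 0.18 for Cacna1h. HT5 and WT4 were each among the lowest 3 mice for 5 genes, so low values were not limited to HT mice. WT3 was highest for Cacna1b, Cacna1c and Cacna1d. Without HT2 and HT5 the median log2 fold change of the 8 genes was 0.02, against -0.06 with all mice.

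**Figure D3:**
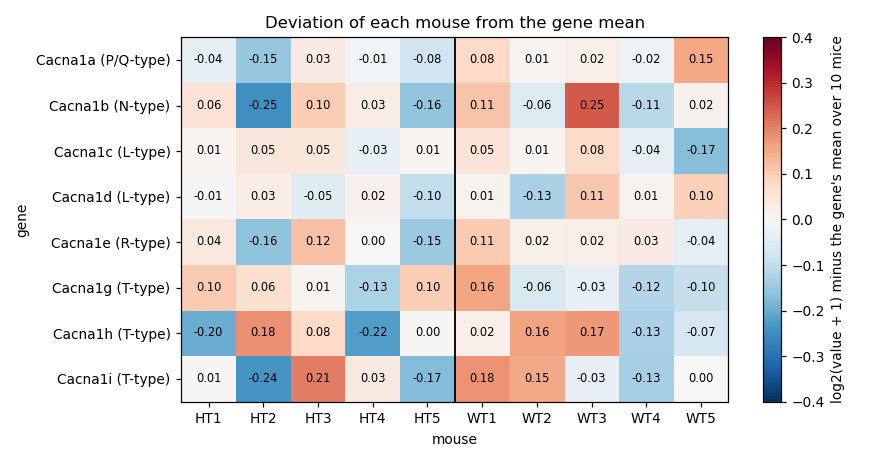
Deviation of each mouse (x axis) from the mean of the 10 mice for each alpha-1 gene (y axis), as a difference of log2(value + 1), with blue for below and red for above the mean and the value printed in each cell. The column of HT2 runs from -0.25 in Cacna1b to 0.18 in Cacna1h, and the row of Cacna1c stays within 0.08 of 0 except in WT5 (-0.17).

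Relations among the members were computed over the 10 mice after centring within genotype, for all 28 pairs. The most closely related pair was Cacna1e and Cacna1i (Pearson r = 0.822, exact permutation p = 0.0113, adjusted over 28 pairs 0.317, Spearman rho = 0.745, exact permutation p = 0.033, adjusted 0.388). Without HT2 and HT3, the mice farthest from the median of centred Cacna1e, r was 0.618. Cacna1b and Cacna1e followed (r = 0.709, exact permutation p = 0.0397, adjusted 0.371, rho = 0.685, exact permutation p = 0.0561, adjusted 0.388), with r = 0.779 without HT2 and WT3. Of the L-type and T-type genes, Cacna1c and Cacna1h had r = 0.595 (exact permutation p = 0.0353, adjusted 0.371, rho = 0.721, exact permutation p = 0.0199, adjusted 0.388), and r = 0.677 without WT3 and WT5. Of the 28 pairs 0 passed adjustment.

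The levels were also set, in the same way, beside marker scores (the mean log2 level of a marker list in each mouse) of glutamatergic neurons, GABAergic neurons, astrocytes, the oligodendrocyte lineage and striatum. Cacna1b had r = 0.762 with the glutamatergic markers (exact permutation p = 0.00181, adjusted over 40 relations 0.0722, rho = 0.867, exact permutation p = 0.00382, adjusted 0.153), and r = 0.746 without HT1 and HT2. It had r = -0.765 with the astrocyte markers (exact permutation p = 0.0172, adjusted 0.263, rho = -0.794, exact permutation p = 0.0156, adjusted 0.312), and r = -0.662 without HT2 and HT5. Cacna1e had relations of like size, with r = 0.739 with the glutamatergic markers (exact permutation p = 0.0672, adjusted 0.298, rho = 0.612, exact permutation p = 0.131, adjusted 0.582) and r = 0.638 without HT1 and HT2. With the astrocyte markers its r = -0.8 was the farthest from 0 of the 40 (exact permutation p = 0.0662, adjusted 0.298, rho = -0.685, exact permutation p = 0.099, adjusted 0.529), and was -0.547 without HT2 and HT5. With the same glutamatergic markers, Cacna1a had r = 0.661 (exact permutation p = 0.0368, adjusted 0.263, rho = 0.576, exact permutation p = 0.104, adjusted 0.529) and Cacna1i r = 0.681 (exact permutation p = 0.0509, adjusted 0.291, rho = 0.624, exact permutation p = 0.0876, adjusted 0.529), and without HT1 and HT2 these were 0.607 and 0.723. With the GABAergic markers, r was -0.683 for Cacna1b (exact permutation p = 0.032, adjusted 0.263, rho = -0.588, exact permutation p = 0.0751, adjusted 0.529) and -0.626 for Cacna1i (exact permutation p = 0.0352, adjusted 0.263, rho = -0.418, exact permutation p = 0.221, adjusted 0.736). Without HT2 and WT4 these were -0.418 and -0.162, so that of Cacna1i rested largely on those mice. Cacna1e had r = 0.612 with the striatal markers (exact permutation p = 0.0394, adjusted 0.263, rho = 0.6, exact permutation p = 0.0736, adjusted 0.529), and r = 0.551 without HT5 and WT3. None of these relations passed adjustment, and 0 of the 40 did. In the covariate fits the score was instead the mean over a list after each marker was centred and divided by its SD over the mice. With the glutamatergic score as a covariate the log2 fold change was nearer to 0 for Cacna1a (-0.07), Cacna1b (-0.03), Cacna1c (0.0263), Cacna1e (-0.02) and Cacna1i (-0.0096). It was farther from 0 for Cacna1h (-0.09) and Cacna1d (-0.05) and was 0.06 for Cacna1g. With the striatal score as a covariate it was farther from 0 for Cacna1e (-0.09, against -0.06 without a covariate) and Cacna1i (-0.11, against -0.07), nearer for Cacna1d (-0.03) and Cacna1h (-0.04), and within 0.01 of the value without a covariate for the other 4 genes. Sums of astrocyte markers were 159265 to 202779 in HT and 145240 to 171585 in WT, with 6 of 9 markers higher in HT at an unadjusted p under 0.05 (4.71% of all genes were) and 0 after adjustment. Microglial sums were 10185 to 14277 in HT and 9962 to 11413 in WT, with 3 of 8 markers higher at the same level and 0 after adjustment. The part of cell composition in the levels of the alpha-1 genes was not tested beyond these fits.

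The genes whose pattern over the 10 mice was most like that of each member, by Pearson correlation of log2(value + 1) centred within genotype among 12629 genes with a mean of at least 100, were as follows. Cacna1a was most like Lsm11 (r = 0.944), Braf (0.942) and Hcfc2 (0.942). Cacna1b was most like Ift122 (r = 0.962), Tmem63c (0.959) and Cap2 (0.95), and Cacna1e most like Foxp1 (r = 0.963), Polr2b (0.955) and Pcm1 (0.947). Cacna1i was most like Dcaf11 (r = 0.966), Hr (0.958) and Ints3 (0.957). For these 4 genes 1% of all genes had r above 0.824 to 0.871, so many genes followed nearly the same pattern. Cacna1c was most like Sem1 (r = 0.943), Fbl (0.915) and Fkbpl (0.904), and Cacna1d most like Ppp4r3a (r = 0.942), Bnip3l (0.907) and Ankrd42 (0.893). Cacna1g was most like Fndc4 (r = 0.933), Aes (0.911) and Plcd3 (0.91), and Cacna1h most like Daxx (r = 0.943), U2af1 (0.932) and Atp13a2 (0.917). For this second set of 4 genes the level exceeded by 1% of genes was lower, at 0.698 to 0.712. These values rest on 10 mice and describe likeness only.

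The remaining alpha-1 genes belong mainly to muscle and retina. Cacna1s, the skeletal muscle L-type pore, was measured at 30.96 to 60.6 in HT and 16.1 to 68.1 in WT (log2 fold change 0.40, limma adjusted p = 0.73). That value rested on single mice, at 0.14 without WT3, 0.16 without WT4 and 0.64 without WT1. Cacna1f, the retinal L-type pore, was not in the table.

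Of the alpha2delta and beta subunits, which set the surface density and gating of high-voltage-activated pores, 1 of 8 had an unadjusted p under 0.05, lower in HT (4.52% of all genes were), and 0 passed adjustment. Cacna2d4, an alpha2delta subunit best known from retina, had 31.3, 34.3, 49.98, 38.4 and 26.7 in HT1 to HT5 and 51.7, 62.9, 64.5, 28.0 and 85.3 in WT1 to WT5. WT4 lay among the HT values, so the groups overlapped. The log2 fold change was -0.62 (SE 0.27, limma adjusted p = 0.511), and -0.48 without HT2 and HT5. Of the abundant members, Cacna2d1 had 9665 ± 960.9 in HT and 10025 ± 346 in WT (SD, 5 mice each), and Cacnb4, a beta subunit that pairs with P/Q-type pores, had 7279 ± 1179 and 8265 ± 1443. Their differences on the log2 scale were -0.06 and -0.18 with all mice, and 0.03 and -0.04 without HT2 and HT5. That of Cacnb4 was -0.10 without HT2 and -0.30 without WT4 (unadjusted p = 0.0101, limma adjusted p = 0.387), so without WT4 it was counted beside Cacna2d4. The median log2 fold change of the 8 genes was -0.07 and 7 were negative, but without HT2 and HT5 the median was -0.01.

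**Figure D4:**
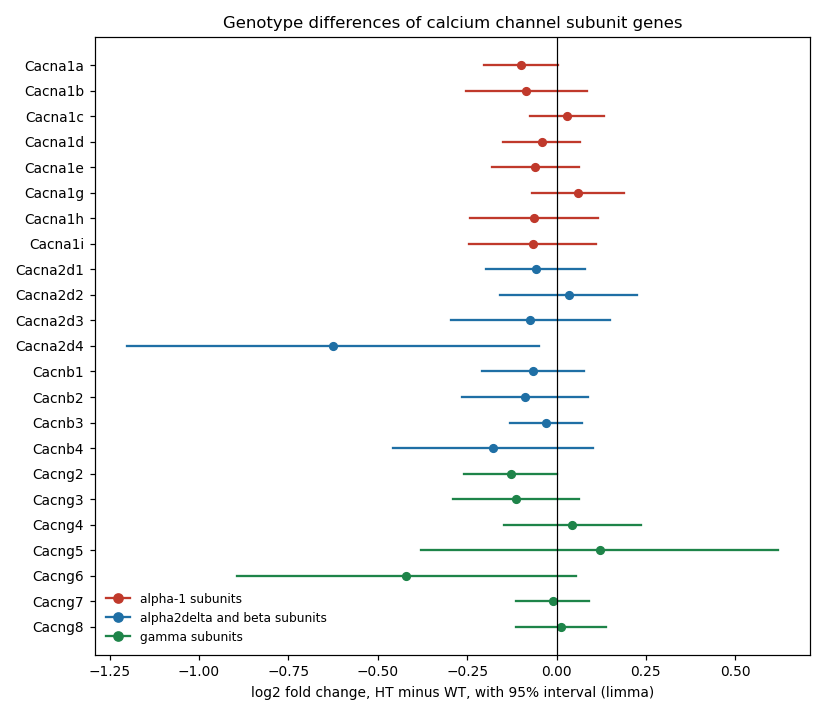
Log2 fold change (HT minus WT, x axis) with its 95% interval from limma for the alpha-1 (red), alpha2delta and beta (blue) and gamma (green) subunit genes (y axis). Of the 8 alpha-1 intervals all include 0, and the interval of Cacna2d4 (-1.20 to -0.05) is the only one of the 23 that does not.

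Most gamma subunits act on AMPA receptors and not on calcium channels. Of these subunits, 7 of 8 were tested (Cacng1 was not in the table) and 0 had an unadjusted p under 0.05 (9.23% of all genes did). Cacng2 (stargazin) averaged 3253 ± 235.2 in HT and 3553 ± 244.6 in WT (SD, 5 mice each), a log2 fold change of -0.13 (limma adjusted p = 0.546). Cacng6 had 36.3 ± 10.9 and 47.4 ± 6.82 (SD, 5 mice each), a log2 fold change of -0.42 (limma adjusted p = 0.566). The difference of Cacng2 was -0.08 without HT2 and -0.07 without HT2 and HT5, and that of Cacng6 was -0.27 without HT3. Both had overlapping groups. The median of the 7 genes was -0.01.

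Of 20 partners and regulators (calmodulins, active-zone scaffolds, SNARE proteins, RGK GTPases and others), 0 passed adjustment. At an unadjusted p under 0.05 there was 1 (9.23% of all genes were). This was Kcnma1, the BK potassium channel that opens when nearby calcium channels do, with 10521 ± 898 in HT and 11485 ± 378.9 in WT (SD, 5 mice each, log2 fold change -0.13, limma adjusted p = 0.523). Its difference was -0.08 without HT2 and -0.06 without HT2 and HT5. The active-zone scaffold genes that tether presynaptic calcium channels had differences of -0.01 (Rims1), 0.07 (Rims2), -0.07 (Rimbp2) and 0.11 (Tspoap1), with limma adjusted p of 0.608 to 0.957. Leaving out mice moved several of these differences. Without HT2 and HT5, that of Tspoap1 was 0.0068 and that of Rims2 was 0.10 (unadjusted p = 0.0241, limma adjusted p = 0.821). That of Rimbp2 was -0.02 without HT2, -0.04 without WT5 and -0.12 without WT4. The list had a median of -0.06, and 0.01 without HT2 and HT5. Its count at an unadjusted p under 0.05 was 0 to 4 in the alternative settings, with 4 under quantile normalisation.

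Of 22 genes of calcium extrusion and intracellular stores, 5 had an unadjusted p under 0.05 (9.23% of all genes did) and 0 passed adjustment. Of these, 2 were higher in HT (4.71% of all genes were) and 3 were lower (4.52% of all genes were). Ryr1, a calcium release channel of the endoplasmic reticulum, had 747.9, 675.5, 840.1, 618.1 and 1001 in HT1 to HT5 and 949, 1075, 1105, 947.2 and 875.2 in WT1 to WT5. HT5 alone among the HT mice lay inside the WT range. Its log2 fold change was -0.37 (SE 0.11, limma adjusted p = 0.47), and -0.43 without HT2 and HT5. Itpr2, an inositol trisphosphate receptor that is prominent in astrocytes, had 1285, 1587, 1501, 1489 and 1419 in HT1 to HT5 and 1396, 1307, 1223, 1124 and 1170 in WT1 to WT5. HT1 alone lay inside the WT range. Its log2 fold change was 0.23 (SE 0.07, limma adjusted p = 0.456), beside the astrocyte marker sums given above, and the part of astrocytes in it was not tested. Atp2a3, an endoplasmic reticulum calcium pump, had a log2 fold change of 0.25 (limma adjusted p = 0.511), and the sodium-calcium exchangers Slc24a3 and Slc8a1 had -0.14 and -0.19 (limma adjusted p = 0.511 and 0.529). For Slc8a1 HT2 (9306) was far below the other mice, and the difference was -0.10 without HT2 and -0.06 without HT2 and HT5. Slc24a3 was at -0.09 without HT2, and Atp2a3 at 0.14 without HT2 and HT5.

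Of 18 genes that carry calcium signals to the nucleus (calcium/calmodulin kinases, calcineurin, CREB and its coactivators, NFAT factors), 0 passed adjustment. An unadjusted p under 0.05 was found for 1 (9.23% of all genes had one), and for 0 to 2 in the alternative settings. Crtc2, a CREB coactivator, averaged 761.4 ± 46.8 in HT and 687.5 ± 51.3 in WT (SD, 5 mice each, log2 fold change 0.15, limma adjusted p = 0.523), and 0.10 without HT2 and HT5. The list was balanced, with 9 positive and 9 negative differences and a median of -0.0032. In Camk2a and Camk2b, the abundant subunits of the calcium/calmodulin kinase that L-type channels activate, the differences were 0.06 and 0.0079 (limma adjusted p = 0.774 and 0.969). Without WT4, whose Camk2a value was the lowest, that of Camk2a was 0.0028. Neither these genes nor the alpha-1 genes differed between genotypes past the threshold used.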

How the data were processed

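RNA-Seq values were available for 10 mice, grouped by the genotype in the labels. The authors estimated transcript abundance with Salmon 1.1.0 against GRCm38, summed it to genes and divided it by DESeq2 1.30.1 size factors, so the deposited values are a normalised signal per gene (normalised count), relative to the other genes. Depth is unknown and the precision came from the spread between mice. The strand setting and the filter on low genes are not given in the sources used here. The study describes WT mice as littermates of Arid1b+/- mice, without naming the litters of these samples.

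Here log2(value + 1) of genes with a mean of at least 10 was fitted with limma 3.58.1 (R 4.3.3, eBayes with trend, two-sided, threshold 0.05 after Benjamini-Hochberg adjustment over 16781 genes). Fold changes of low genes are understated on this scale. Ratios were tested by exact permutation (252 assignments, smallest p 0.00794), relations by exact permutation within genotype (14400 pairings). Lengths, positions and sequences came from GENCODE M21. The methods were tested on simulated data. For the limma fit the planted changes were larger than any alpha-1 difference reported here, so its power at these smaller sizes is unknown. Named genes were Arid1b, the 8 alpha-1 genes, per list every gene at an unadjusted p under 0.05 (otherwise the smallest 2), and the 3 most alike genes per member. Cacna2d1, Cacnb4, the 4 scaffold genes, Camk2a and Camk2b were named after their values were seen. The members and lists were chosen with earlier results of these data known. Alternatives were pseudocounts, filters, scalings, variance models, sample weights, a replicate block, marker covariates and mice left out.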

Additional observations from a re-analysis of the deposited data

Results flagged for a closer look

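In 62 groups of 5 mice (the alpha-1 genes, Arid1b, the genes named from the calcium lists and the 3 ratios, in each genotype), 2 had a mouse farther from its group than Dixon's 95% critical value of 0.71 allows. The first was Cacna1g in WT1, at a normalised count of 7169 against 5919 to 6276 in the other 4 WT mice, with a gap of 0.714 of the group's range. The second was Camk2a in WT4, whose 62369 lay below the 74667 to 79528 of its 4 group mates, with a gap of 0.717 of the range. Chance alone at 1 in 20 would give 3.1 such groups.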

How the results depend on the processing

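For each of the 8 alpha-1 genes, the limma adjusted p stayed above the threshold in every alternative run, with 0.433 as the lowest (Cacna1a without HT3). Signs held in all alternatives that kept the 10 mice. Without HT2 and HT5 they reversed for Cacna1b (0.0211), Cacna1e (0.0243) and Cacna1i (0.0485), and without WT5 for Cacna1c (-0.0099). The cause was not tested. Depth is unknown, so no limit of detection can be given.

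With single mice left out, the log2 fold changes ranged from -0.12 to -0.07 (Cacna1a), -0.12 to -0.03 (Cacna1b), -0.0099 to 0.0518 (Cacna1c), -0.08 to -0.02 (Cacna1d), -0.10 to -0.03 (Cacna1e), 0.04 to 0.11 (Cacna1g), -0.12 to -0.01 (Cacna1h) and -0.13 to -0.02 (Cacna1i). The ratio of Cacna1b to Cacna1a ranged from -0.0185 to 0.0712 and reversed without HT1 (-0.009), HT3 (-0.0014), WT2 (-0.0006), WT4 (-0.0071) or WT5 (-0.0185), that of Cacna1d to Cacna1c from -0.11 to -0.01 and that of Cacna1h to Cacna1g from -0.17 to -0.06. Counts at an unadjusted p under 0.05 ranged from 0 to 1 for the alpha-1 genes, with Cacna1a past it without HT3 or WT4. Over all genes tested, 1829 of 16795 were past it without HT3 and 1829 of 16781 without WT4, against 1549 of 16781 with all mice. For alpha2delta and beta subunits the count was 0 without HT1, HT2, HT5, WT2, WT3 or WT5 and 2 without WT4, where Cacnb4 was added. For gamma subunits it ranged from 0 to 2, with 2 without HT1 and 1 without HT5 or WT4. For partners it was 2 without HT2 and 0 without HT5, WT1, WT2 or WT3, and for nuclear signalling 0 without HT2, HT5, WT2 or WT3 and 2 without HT3 or WT4. For extrusion and stores it ranged from 2 to 6, with 3 without HT4 or HT5 and 2 without WT2 or WT3. The count over all genes moved too, with 16759 to 16796 genes tested. It was 1782, 1204, 1829, 1673 and 1128 without HT1 to HT5 in turn, and 1442, 1406, 1085, 1829 and 1244 without WT1 to WT5. Between 3 and 4 of all genes passed adjustment.

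Other settings moved the list counts as follows. A mean of at least 50 gave 0 for alpha2delta and beta subunits, because Cacna2d4, the gene counted, has a lower mean. Quantile normalisation gave 1 for gamma subunits, 4 for partners and 2 for nuclear signalling. Without the variance trend the counts were 0 for partners, 3 for extrusion and stores and 2 for nuclear signalling, and with sample weights 2 for gamma subunits, 0 for partners and 3 for extrusion and stores. The striatal covariate gave 0 for alpha2delta and beta subunits, 2 for partners and 2 for nuclear signalling, and the glutamatergic covariate 0, 3 and 0. Without HT2 and HT5 the counts were 0 for alpha2delta and beta subunits, 1 for gamma subunits, 2 for partners and 3 for extrusion and stores. Signs also reversed for differences near 0 that were named from the lists. Rims1 was at 0.0076 with quantile normalisation, 0.0113 with the glutamatergic covariate, 0.0115 without HT2 and HT5, and -0.0961 to 0.0243 with single mice left out (reversed at 0.0243 without WT1 and 0.0094 without WT2). Camk2b was at -0.0042 with the striatal covariate and -0.0165 to 0.0418 with single mice left out (reversed at -0.0141 without HT1 and -0.0165 without HT3). Cacna2d1 was at 0.0331 without HT2 and HT5 and -0.0854 to 0.0061 with single mice left out (reversed at 0.0061 without HT2). Cacna1s, Cacna2d4 and Cacng6 were not tested at a mean of at least 50.

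Replicate numbers are shared by both genotypes. Same-numbered mice showed no clear common deviation (correlations of -0.041 to 0.101, mean 0.0375, against -0.00909 for different numbers), which was not tested. Such correlations cannot settle whether a number marks a shared litter or batch. With the replicate number as a block, 3 genes passed adjustment, 0 of the alpha-1 genes had an unadjusted p under 0.05 and nuclear signalling had 0 (Crtc2, unadjusted limma p 0.0676). Over all genes, 1508 of 16781 had an unadjusted p under 0.05 in that fit. The count of partners remained 1 with another gene, since Kcnma1 had an unadjusted limma p of 0.0591 and Cabp1, named here after its value was seen, 0.0492.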

Other observations

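The summed levels of the other marker lists gave no list whose HT and WT values were separate. HT and WT ranges were 17132 to 18840 and 16406 to 19984 for GABAergic neurons, 58077 to 79409 and 34083 to 81873 for the oligodendrocyte lineage, 12656 to 17349 and 13190 to 14541 for endothelium and mural cells, and 2471 to 4350 and 3018 to 3463 for meninges. For neighbouring regions they were 7528 to 22863 and 6526 to 18044 for striatum, 581.8 to 3157 and 536 to 3146 for olfactory bulb, and 1188 to 2454 and 1101 to 1932 for thalamus. Cerebellar markers had 436.4 to 950 and 430 to 855, choroid plexus markers 40.2 to 77 and 54 to 63, and blood markers 6417 to 9348 and 7022 to 11297. The olfactory bulb sum was highest in HT2 (3157), WT4 (3146) and WT3 (1868).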
